A study of Homo sapiens with 8 samples.

Results

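Always open promoters were defined here as the promoters at which a peak of accessible chromatin was called in every library of a human cardiac differentiation series. The peaks of all 8 deposited lists were merged on chromosomes 1 to 22 and X, and a merged region was kept if all 8 lists had a peak in it and its midpoint lay within 1 kb of the transcription start site (TSS) of a protein-coding gene. This rule selected 13806 of 285853 merged regions (4.83%). They made up 49.1% of the 28115 regions with a peak in all 8 lists, and 58.4% of the 23646 regions near a TSS. The remaining 14309 regions with a peak in all lists lay over 1 kb from a TSS and are called far regions here.

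The lists came from ATAC-seq, in which the Tn5 transposase cuts into accessible DNA, of RUES2 cells, an established human embryonic stem cell line. There were 4 stages with 2 replicate libraries each: embryonic stem cells before differentiation on day 0 (hESC), mesoderm on day 2 (MES), progenitors of heart cells on day 5 (CP) and cardiomyocytes on day 14 (CM). All stages shared this line, for which the labels name no edit, the day 0 cells had been given a day of low CHIR-99021, a GSK3 inhibitor that activates WNT signaling, and no label says that the CM were purified. Nor do the labels say that the libraries of a stage came from separate differentiations, so p-values measure the spread between these libraries, which may be technical. Promoter peaks of stage markers followed the labels in part: NANOG had a peak in hESC and MES libraries only, MYH6 in replicate 2 of CP and both CM libraries, and NPPA in replicate 1 of CM. Other markers did not separate the stages. TNNT2, ACTN2 and TTN of CM and SOX2 and TDGF1 of hESC had a peak in all 8 libraries (TNNT2 and TTN without meeting the rule), and POU5F1 in 7. All 5 markers of MES had a peak in every library, as did 4 or 5 of the 5 of CP. Of 7 marker genes of other cells, 4 or 5 had a promoter peak in each library, COL1A1 and SOX17 among them, and CDH5 and PTPRC had none.

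A promoter is the stretch of DNA around a TSS where RNA polymerase II and its general factors assemble. Most vertebrate housekeeping promoters lie in CpG islands, which stay unmethylated and short of nucleosomes in nearly all cell types, and they carry sites of widely expressed activators such as SP1, NRF1, the ETS factors, NF-Y and YY1. Promoters of lineage genes more often hold a TATA box or open only where a lineage factor binds. In bulk ATAC-seq, fewer cells with an open promoter and less accessibility in each cell cannot be told apart.

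The sequences below are the 200 bases upstream of the TSS, read from hg38 on the strand of the gene, at 6 of the promoters that are described by name further on. They are shown because they span the kinds of promoter found among those that were strongest, that became stronger and that became weaker. POM121C was among the strongest in all lists, FILIP1, IL1R1 and DYSF became stronger from hESC to CM, and C1orf87 and PRSS48 became weaker. Capitals mark matches to the short consensus sequences given later: an ETS site in POM121C, a pair of AP-1 sites in IL1R1, 3 GC boxes and a CCAAT box in both DYSF and C1orf87, and a CCAAT box in PRSS48. FILIP1 had no match.
POM121C (chr7:75486300-75486499, minus strand): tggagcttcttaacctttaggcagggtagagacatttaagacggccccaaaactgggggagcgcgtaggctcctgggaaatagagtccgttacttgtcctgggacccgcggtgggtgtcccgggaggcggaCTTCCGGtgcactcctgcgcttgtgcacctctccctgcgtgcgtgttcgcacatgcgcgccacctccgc
FILIP1 (chr6:75493801-75494000, minus strand): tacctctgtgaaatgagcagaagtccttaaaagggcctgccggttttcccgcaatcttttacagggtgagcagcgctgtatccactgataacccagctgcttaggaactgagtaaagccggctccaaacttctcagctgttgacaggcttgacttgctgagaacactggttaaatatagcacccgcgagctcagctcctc
IL1R1 (chr2:102064344-102064543, plus strand): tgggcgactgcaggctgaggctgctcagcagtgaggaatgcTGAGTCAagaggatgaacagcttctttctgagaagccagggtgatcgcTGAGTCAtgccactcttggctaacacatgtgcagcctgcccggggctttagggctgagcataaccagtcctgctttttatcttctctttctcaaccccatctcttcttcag
DYSF (chr2:71466499-71466698, plus strand): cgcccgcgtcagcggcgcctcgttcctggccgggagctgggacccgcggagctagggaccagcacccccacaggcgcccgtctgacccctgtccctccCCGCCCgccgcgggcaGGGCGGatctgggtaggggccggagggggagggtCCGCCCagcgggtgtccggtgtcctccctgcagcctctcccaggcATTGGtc
C1orf87 (chr1:60073771-60073970, minus strand): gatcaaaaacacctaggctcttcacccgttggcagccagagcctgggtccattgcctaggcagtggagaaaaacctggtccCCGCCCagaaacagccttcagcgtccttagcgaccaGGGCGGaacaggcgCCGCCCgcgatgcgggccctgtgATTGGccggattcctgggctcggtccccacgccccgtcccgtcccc
PRSS48 (chr4:151276961-151277160, plus strand): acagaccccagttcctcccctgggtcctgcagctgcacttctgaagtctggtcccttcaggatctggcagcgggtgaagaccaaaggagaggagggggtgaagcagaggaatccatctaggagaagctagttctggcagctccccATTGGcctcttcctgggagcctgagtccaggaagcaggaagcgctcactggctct
The GC content of these stretches ranged from 50.5% in FILIP1 to 76.5% in DYSF, and the number of CpG dinucleotides from 2 in PRSS48 to 20 in DYSF.

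Most promoter regions had a peak either in all libraries or in few. Of the regions near a TSS, 13806 had a peak in all 8 lists and 3496 in only 1, while the classes between held 790 to 1555 each. The share of regions near a TSS was 3.01% among those with a peak in 1 list, 10.3% with 7 lists and 49.1% with 8. Of the 1272 promoter regions missing from 1 list, 964 were missing from replicate 2 of CM, the library with the fewest peaks, and 5 to 100 from each of the others. Without that library 14770 promoters met the rule, and without any other library 13811 to 13906 did.

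The always open promoters served 13831 of 19618 protein-coding genes (70.5%). A further 2909 genes (14.8%) had a region with its midpoint within 1 kb of a TSS and a peak in only some lists. The other 2878 (14.7%) had no region with its midpoint that near and are counted here as without a promoter peak. A single gene was assigned to 12148 of the promoters, 2 genes to 1581 and 3 or more to 77, and 1491 genes had at least 2 always open promoters. The midpoint lay a median of 96 bp from the nearest TSS and within 250 bp in 82.5%. The merged regions had a median length of 1159 bp (quartiles 916 and 1450, range 286 to 3374), against 667 bp for the far regions.

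The edges of the rule were soft. Inside it, the smallest −log10 q over the 8 lists was 2.54 at RUNX2, 2.73 at TICAM1 and 2.73 at NDRG1. Outside it, AKAP7, LARP1 and FBXL19 lacked a peak only in replicate 2 of CM, and their smallest −log10 q in the other lists was 27.3, 25.5 and 24.5. By distance, KLK15 (999 bp), SCRT1 (996 bp) and APOLD1 (996 bp) were the last inside, and the first regions outside lay 1001, 1003 and 1003 bp away. Since a promoter without a peak at any stage was left out by the rule, promoters that closed or opened fully are not among those described here.

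The always open promoters were GC-rich. In the 300 bp around the midpoint their median GC content was 69.7% and their median CpG ratio, the observed over the expected number of CpG, was 0.844. A ratio of at least 0.6 was reached by 87.1% of them, by 49.9% of promoters with a peak in 7 lists, by 24.8% of the 9840 promoters with a peak in 1 to 7 lists and by 23% of the far regions. At the canonical TSSs of all protein-coding genes 69.3% reached it, and of the genes without a promoter peak 11.6%.

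Consensus sequences of widely expressed factors were frequent in them. The GC box bound by SP1 (GGGCGG) occurred in 72.6% of the always open promoters, in 31.3% of promoters with a peak in 1 to 7 lists and in 29.8% of far regions, searched on both strands in windows of the same 300 bp. The ETS site (CCGGAAG) was found in 13.3%, 3.84% and 3.66% of these sets, the NRF1 site (GCGCANGCG) in 9.51%, 1.51% and 2.14%, and the YY1 site (AAGATGGCG) in 2.82%, 0.224% and 0.301%. The sequence TCTCGCGA occurred in 1.30%, 0.132% and 0.147%, and the cyclic AMP response element (TGACGTCA) in 1.81%, 0.579% and 0.545%. Thus each of these 6 sequences was found in a larger share of the always open promoters than of the other promoters. The CCAAT box of NF-Y (CCAAT) did not follow them, with 25.3% of both promoter sets and 28.3% of far regions, and the E-box CACGTG came to 6.98%, 5.75% and 5.62%.

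The consensus sequences of regulated promoters and of enhancers showed the opposite order. The TATA box (TATAAA) was found in 2.28% of the always open promoters, 5.60% of the promoters with a peak in 1 to 7 lists and 5.70% of far regions. AP-1 sites (TGANTCA) occurred in 2.64%, 8.81% and 10.2%, the CTCF core (CCACNAGG) in 4.87%, 8.01% and 12.0%, TEAD sites (ACATTCC) in 1.64%, 4.51% and 5.58%, and GATA sites (AGATAAG) in 0.869%, 3.76% and 3.76%. OCT sites (ATGCAAAT) were found in 0.732%, 1.57% and 1.68%, and MEF2 sites (TATTTATAG, whose reverse complement holds a TATA box) in 0.130%, 0.285% and 0.245%. The sets differ in base composition, so that these shares also follow GC content, and a match is not evidence of binding.

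The libraries differed in depth and in the number of peaks. They held 55777 (CM replicate 2) to 156179 (MES replicate 2) peaks on these chromosomes, and the lowest background of a list, which follows the depth of the library, ran from 2.54 in CM replicate 2 to 4.62 in hESC replicate 2. Peak number did not follow that background throughout: CM replicate 1 held 92731 peaks at a lowest background of 4.57, and MES replicate 2 had a lowest background of 3.94. Always open promoters, the same regions in every list, were 9.10% of the regions of the list of hESC replicate 2 and 26.0% of that of CM replicate 2. In the order of replicates 1 and 2 of hESC, MES, CP and CM, their median covered width was 924, 1044, 974, 1005.5, 929, 940, 915 and 766 bp, and their median fold over the local background was 7.48, 7.40, 7.70, 8.06, 7.39, 8.72, 6.95 and 7.52. CM replicate 2 had the narrowest peaks, and the fold did not follow the stage. Neither differed between stages beyond the spread of the libraries (exact permutation test over all 105 pairings of 8 libraries, two-sided by nature, p = 0.210 for width and 0.448 for fold; adjusted over 5 summaries, 0.262 and 0.448).

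To compare libraries of different depth, the strength of a promoter was its percentile (0 to 100) by fold in each list, among the 28115 regions with a peak in all 8. The median promoter stood at percentiles 57.5 and 53.3 for hESC, 56.2 and 51.4 for MES, 62.0 and 55.0 for CP, and 65.2 and 67.1 for CM. The far regions stood at 43.7 and 47.2, 44.6 and 48.7, 40.6 and 45.5, and 37.9 and 37.1. The promoters therefore stood higher in every library, by 2.66 points in MES replicate 2 to 30.0 points in CM replicate 2, and by 28.7 ± 1.86 points in CM against 9.92 ± 5.52 in hESC (SD, n = 2). Of the strongest 10% of all regions of a list, 43.8% and 32.4% were always open promoters for hESC, 41.8% and 31.0% for MES, 59.0% and 39.1% for CP, and 63.9% and 73.6% for CM. Both CM libraries were above all others in the last 2 measures, but the exact permutation p over the 4 stages was 0.0857 for the lead and 0.0952 for the share (adjusted, 0.238 each), where the design allows no p below 0.009524. Within every stage the library with fewer peaks had the larger lead and share, and in CP the share had an SD of 14.1 points. When all lists were cut to their 55777 peaks of highest −log10 q, the lead was −1.03 points in hESC replicate 2 and −3.97 in MES replicate 2, and 3.63 to 28.7 in the others.

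**Figure D1:**
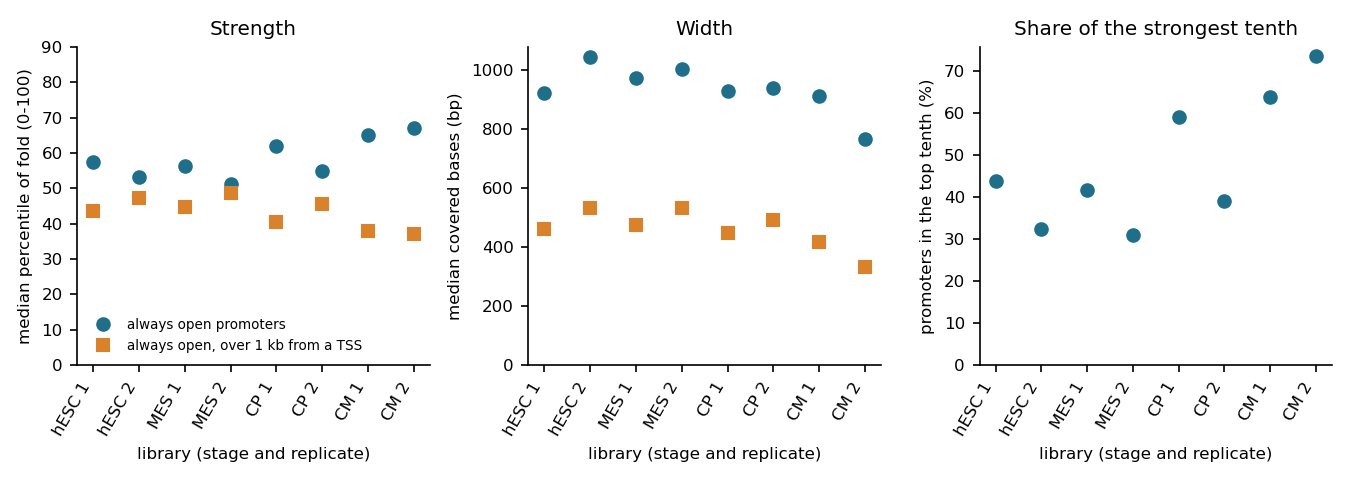
Values of the 8 libraries (x axis, stage and replicate): median percentile of fold and median covered width in bp for always open promoters and far regions, and the percentage of the strongest 10% of regions of each list that were always open promoters, 1 point per library. Both CM libraries had the largest gap between promoters and far regions (27.3 and 30.0 points), and CM replicate 2 the narrowest promoters (766 bp).

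Fold and pileup gave different pictures of strength. The fold of the peak caller is the pileup of cuts at the summit over the local background, and both could be recovered for each peak from its fold and its −log10 p. Promoters had a median pileup of 24.5 times the lowest background of the list and a median local background of 2.87 times that level. Far regions had 13.2 times and 1.61 times. By fold the median promoter stood only a little above the median far region (7.66 against 6.72), because the fold divides by the local background, which was higher at promoters. Their open stretch was also wider (937 bp against 466 bp). By pileup the median promoter stood at percentile 71.0 and the median far region at 29.7.

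Within the promoters the same held. From the weakest to the strongest 10% by fold, the median local background fell from 4.28 to 2.09 times the lowest background while the pileup rose from 17.2 to 29.3 times. These are descriptions of how fold is built and carry no test.

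The 5 strongest promoters were those of ZNF286A, PRKRIP1, FAM185A, POM121C and KANSL1, all at percentile 99.4 or above in every list. The fold at ZNF286A, a zinc finger gene, was 18.4 and 19.3 for hESC, 18.3 and 20.3 for MES, 18.6 and 22.1 for CP, and 16.2 and 19.8 for CM. KANSL1 encodes a subunit of a histone acetyltransferase complex and POM121C a protein of the nuclear pore. Their local background was low (1.05 to 1.81 times the lowest background), and by pileup they stood at mean percentiles of 67.8 to 92.7. All 5 share sequence with other places in the genome: of 10 stretches of 50 bases spaced over each region, 3 to 5 had a second copy, whereas none did at the 5 steadiest promoters below. Reads from such stretches may be removed by a filter on mapping quality. Whether they were, and the part this plays in the fold, was not tested.

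Promoters kept their order through differentiation more closely than far regions. The median promoter moved 5.47 (MES) to 8.01 (CP) points between the replicates of a stage, against 7.91 to 11.4 points for far regions. Averaged over the pairs of 1 hESC and 1 CM library it moved 11.2 points (far regions 17.2), and between hESC and MES libraries 7.19 points (11.5). Over all 8 libraries the range of the median promoter was 26.0 points and that of the median far region 39.7, and 32.4% of promoters but 12.6% of far regions stayed within 20 points. In every list the same 405 promoters were in the strongest 10% of promoters, which is 29.3% of that class, and the same 474 in the weakest 10% (34.3%).

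The steadiest promoters of middle strength were those of NRIP3, TMEM42, MRPL52 with SLC7A7, and TGFB3, together with a gene that has no symbol in the annotation. NRIP3 stood at percentiles 25.7 and 25.3 for hESC, 28.1 and 29 for MES, 30.6 and 27.4 for CP, and 28.2 and 27.6 for CM, a range of 5.27 points. TGFB3, which encodes transforming growth factor beta 3, stood at 18.8 and 19.8 for hESC, 18.03 and 20.6 for MES, 16.9 and 19.2 for CP, and 25.5 and 24.4 for CM. Its values in CM lay above the others, by less than could be called (limma adjusted p over the 4 stages = 0.716). MRPL52, a protein of the mitochondrial ribosome, stood at 71.1 and 71.1 for hESC, 72.5 and 72.2 for MES, 78.8 and 75.8 for CP, and 75.01 and 75.4 for CM.

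The test over the 4 stages (limma moderated F, Benjamini-Hochberg over all 28115 regions, threshold 0.05) called 265 promoters (1.92%), where 5.68% of all regions with a peak in all lists and 9.30% of far regions were called. Comparing CM with hESC, 527 promoters became stronger (3.82%, against 3.72% of all regions tested) and 135 became weaker (0.978%, against 5.03% of all and 8.94% of far regions). The share that became stronger was thus near the background, and the share that became weaker below it. The CM and hESC libraries did not overlap in any of the 662 called promoters, which the call nearly requires. The median promoter stood 6.46 points higher in CM than in hESC and the median far region differed by −4.98 points, as ranks within 1 set must balance. Of the 265 promoters, 169 had their highest mean in CM, 44 in hESC, 28 in CP and 24 in MES.

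The balance of the 2 directions depended on the scale. Of the promoters called between hESC and CM, 79.6% were stronger in CM by percentile of fold, 86.9% by log2 fold, 72.1% by normal scores, 61.1% by percentile of −log10 q and 57.0% by percentile of pileup. When promoters were ranked among themselves, the scale chosen after seeing the data, 135 were stronger and 197 weaker (40.7% stronger), and among all regions of each list 36 and 67 (35.0%). By pileup 807 promoters were higher in CM (5.85%, against 6.64% of all regions) and 610 lower (4.42%, against 6.93%). Of the 527 promoters that became stronger by fold, 186 were also called higher by pileup and 463 kept their sign, and of the 135 that became weaker, 86 were also called and 135 kept their sign. The direction of the promoters as a class is therefore given only relative to far regions.

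The calls also rested on single libraries. Without replicate 1 or 2 of hESC 5 and 16 promoters were stronger and 4 and 11 weaker, without replicate 2 of CM 120 and 38, without either MES library 179 to 189 and 62 to 66, and without either CP library or replicate 1 of CM 587 to 607 and 161 to 175. The sign of all 662 differences was the same in each of these fits. A larger count does not mean that the same promoters were called: without replicate 1 of CM, many of the 662 were no longer called. Leaving out an hESC or CM library leaves that stage with 1 library, which is then assumed to vary like the other stages.

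**Figure D2:**
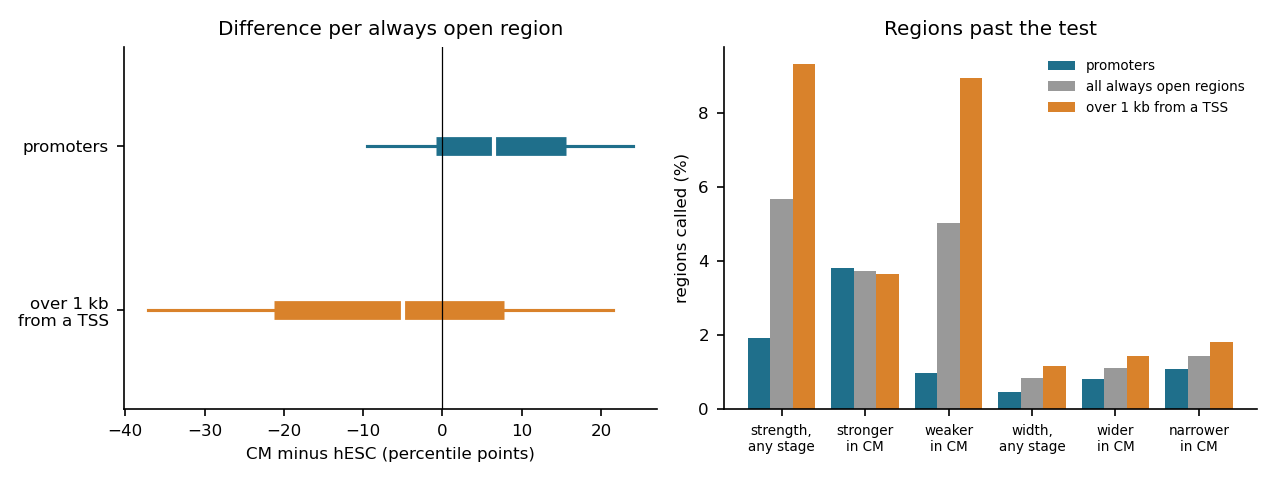
Left, the difference in percentile of fold between CM and hESC over 13806 promoters and 14309 far regions, with the median (white mark), the quartiles (thick bar) and the 10th and 90th percentiles (thin line). Right, the percentage of promoters, of all regions with a peak in all lists and of far regions called in 6 limma tests; 0.978% of promoters and 8.94% of far regions became weaker in CM.

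The 10 largest gains in strength included the promoters of FILIP1, DYSF and CEP85L. FILIP1 (chr6:75493388-75494122), which encodes a filamin-binding protein of muscle and nerve cells, stood at percentiles 11.7 and 23.6 for hESC, 49.8 and 47.2 for MES, 96.6 and 93.5 for CP, and 92.97 and 87.4 for CM. It gained 72.6 ± 8.87 points from hESC to CM (SE; limma adjusted p = 0.00375), with the CP libraries already at the level of CM. DYSF (chr2:71466096-71467173), the gene of the membrane repair protein dysferlin, stood at 4.32 and 12.9 for hESC, 28.7 and 17.4 for MES, 49.97 and 47.2 for CP, and 63.01 and 76.4 for CM. It rose at each step and gained 61.1 ± 9.795 points (adjusted p = 0.00975). CEP85L (chr6:118709109-118709922), a centrosomal gene whose locus also holds PLN, the inhibitor of the cardiac calcium pump, stood at 8.24 and 10.3 for hESC, 55.6 and 46.7 for MES, 43.6 and 27.3 for CP, and 82.6 and 73.7 for CM and gained 68.9 ± 10.5 points (adjusted p = 0.00834). Its midpoint lay 552 bp downstream of the TSS.

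The other gains were at GCNT2, APELA, RERE, IL1R1, BNC2, RTL5 and SULT1C4. GCNT2 (chr6:10520982-10521647), a glycosyltransferase that branches the sugars of the I blood group, gained the most, 74.3 ± 11.02 points (adjusted p = 0.00759). Its promoter stood at 4.93 and 14.3 for hESC, 52.6 and 35.02 for MES, 73.7 and 84.8 for CP, and 88.97 and 78.8 for CM. APELA (chr4:164876736-164877505) encodes a peptide ligand of the apelin receptor that is needed for heart formation and is also made by embryonic stem cells. It stood at 20.1 and 46.3 for hESC, 20.2 and 36.2 for MES, 47.3 and 89.99 for CP, and 97.97 and 89.04 for CM, and the gain of 60.3 ± 15.3 points (adjusted p = 0.0428) was larger than the gaps between the replicates of hESC and of CP, which were wide here. RERE, a nuclear receptor corepressor, stood at 27.5 and 46.3 for hESC, 73 and 72.9 for MES, 71.6 and 85.1 for CP, and 99.03 and 98.1 for CM. IL1R1, the interleukin 1 receptor, stood at 7.89 and 10.04 for hESC, 12.1 and 15.6 for MES, 27.98 and 65.5 for CP, and 65.4 and 82.6 for CM, with the CP replicates far apart. BNC2, a zinc finger gene, stood at 13.3 and 16.9 for hESC, 77.3 and 61.2 for MES, 49.8 and 57.2 for CP, and 81.1 and 64.1 for CM, so that its increase was present by day 2. RTL5 and SULT1C4 gained 63.8 ± 11.4 and 58.1 ± 10.3 points.

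The 10 largest losses were at promoters that stood above the median promoter in hESC, and all but RAB25 and FYB2 did so in MES too. C1orf87 (chr1:60073463-60074241) stood at 87.7 and 88.97 for hESC, 93.1 and 91.5 for MES, 67.4 and 71.5 for CP, and 5.82 and 8.56 for CM and fell by 81.1 ± 8.12 points (adjusted p = 0.00206). It kept its place until MES, was lower in CP and among the weakest promoters in CM. HESX1 (chr3:57199735-57200301), a homeobox repressor of the early forebrain that is active in pluripotent cells, stood at 95.3 and 91.4 for hESC, 95.9 and 92.4 for MES, 77.9 and 73.2 for CP, and 34.4 and 13.1 for CM and fell by 69.6 ± 8.299 points (adjusted p = 0.00342). ACTL6B (chr7:100655907-100656681), a subunit of the chromatin remodeler of neurons, stood at 84.6 and 89.5 for hESC, 91.1 and 90.6 for MES, 78.9 and 69.9 for CP, and 37.5 and 17.6 for CM and fell by 59.5 ± 8.602 points (adjusted p = 0.00693).

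The other losses included RAB25, PARD3 and PRSS48. RAB25 (chr1:156060873-156061702), a small GTPase of epithelial membrane traffic, stood at 69.8 and 58.2 for hESC, 46.2 and 36.1 for MES, 25 and 6.98 for CP, and 11.3 and 1.37 for CM. It fell through all stages by 57.7 ± 9.66 points (adjusted p = 0.0109). PARD3, a cell polarity gene, had its region 939 bp upstream of an internal TSS and stood at 73.4 and 76.98 for hESC, 88.1 and 75.5 for MES, 52.3 and 15.9 for CP, and 2.57 and 8.56 for CM. PRSS48, a serine protease gene, stood at 87.4 and 77.5 for hESC, 58.3 and 82.2 for MES, 69.97 and 75.5 for CP, and 8.29 and 14.6 for CM. FYB2 stood at 66.5 and 77.3 for hESC, 42.5 and 42.5 for MES, 20.3 and 9.74 for CP, and 10.5 and 11.5 for CM and lost its strength mostly before CM. SAMD3 fell by 66.8 ± 12.4 points, ASAP3 fell by 57.6 ± 12.99 and MRPS22 fell by 60.02 ± 15.3, and by pileup MRPS22 differed by −19.4 points and was not called.

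Of these 20 promoters, 19 were also called by pileup, 16 when promoters were ranked among themselves, 13 without replicate 2 of CM, 4 without replicate 1 of hESC and 5 without replicate 2 of hESC. With ranks among all regions of each list, 9 of the 20 were still called. The 20 were chosen by this contrast, so that their size is a description.

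Few promoters differed mainly in the middle of differentiation. Among the 265 called over the stages, 7 stood higher in all MES and CP libraries than in all hESC and CM libraries and 10 lower. The same counts were not made over all 1596 regions called, so that they describe these promoters only. ANK3 (ankyrin-G, a membrane anchor) stood at 67.7 and 74.01 for hESC, 19.9 and 22.2 for MES, 12.1 and 26.3 for CP, and 83.9 and 88.1 for CM (adjusted p of the F test = 0.01396). CALD1, caldesmon, an actin-binding regulator of smooth muscle, stood at 81.2 and 88.7 for hESC, 40.1 and 51.5 for MES, 51.3 and 57.4 for CP, and 81.7 and 88.8 for CM (adjusted p = 0.0364). Both dipped at MES and CP and returned in CM to at least the level of hESC. The splicing factor gene RBFOX2, with 70.1 and 91.99 for hESC, 26.5 and 24.6 for MES, 55.2 and 64.6 for CP, and 70.3 and 68.6 for CM, was lowest in MES.

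In the other direction, FOLH1, which encodes a peptidase of the cell surface, stood at 14.7 and 31.2 for hESC, 79.7 and 89.4 for MES, 73.4 and 97 for CP, and 58.6 and 29.7 for CM (adjusted p = 0.0414). MYO5B, a myosin of vesicle transport, stood at 22.8 and 20.1 for hESC, 49.5 and 46.03 for MES, 24.9 and 27.4 for CP, and 8.499 and 3.79 for CM (adjusted p = 0.0283), and was highest in MES. TRPV6, a calcium channel gene, stood at 41.9 and 34.1 for hESC, 56.2 and 56.9 for MES, 65.1 and 58.6 for CP, and 10.3 and 5.04 for CM and was lowest in CM. The CM libraries also set EFHB and SCHIP1 apart, at 51.4 and 40.5 and at 64.5 and 65.1, where their other libraries were at 85.4 or above.

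Width changed at fewer promoters than strength. The covered width, centered on the median of each library, differed between stages at 65 promoters (0.471%, against 0.829% of all regions tested). From hESC to CM 113 became wider (0.818%, against 1.12%) and 148 narrower (1.07%, against 1.44%). All these shares were at or below the background. The widest promoters were those of YWHAZ, RIMS2, POU2F1, MBOAT7 with TSEN34, and ING2. POU2F1, which encodes the ubiquitous OCT1 factor, covered 2355 and 2310 for hESC, 2368 and 2385 for MES, 2284 and 2369 for CP, and 2432 and 2348 for CM bases.

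The gains in width included a cardiac kinase and an immediate early gene. MYLK3 (chr16:46748137-46749067), the cardiac myosin light chain kinase, covered 332 and 448 for hESC, 277 and 332 for MES, 410 and 520 for CP, and 912 and 832 for CM bases, a gain of 1.52 ± 0.216 on the centered log2 scale (SE; limma adjusted p over the stages = 0.0300). It was wider in both CM libraries than in all others. JUNB (chr19:12791238-12791919), an AP-1 factor, covered 228 and 280 for hESC, 493 and 541 for MES, 602 and 629 for CP, and 682 and 623 for CM bases and gained 1.71 ± 0.194 (adjusted p = 0.0300), with most of the gain between hESC and MES. ACOT11, a thioesterase gene, covered 406 and 558 for hESC, 450 and 625 for MES, 851 and 1071 for CP, and 1217 and 1158 for CM bases.

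Losses of width were larger. The promoter shared by SHE and TDRD10 (chr1:154501442-154503242) covered 1501 and 1717 for hESC, 1303 and 1794 for MES, 1476 and 1155 for CP, and 207 and 234 for CM bases, a loss of 2.52 ± 0.212 (adjusted p = 0.00942). FAM83G covered 1413 and 1349 for hESC, 1401 and 1437 for MES, 983 and 911 for CP, and 226 and 207 for CM bases and NEURL1, a ubiquitin ligase gene, 1210 and 1208 for hESC, 1117 and 1406 for MES, 988 and 738 for CP, and 250 and 200 for CM bases. HRH1, the histamine H1 receptor gene, covered 1213 and 1504 for hESC, 1097 and 1088 for MES, 834 and 967 for CP, and 358 and 204 for CM bases. All 4 narrowed from over 1 kb in hESC to at most 358 bases in CM. Most of these CM widths lay close to 200 bases, the length to which cuts were extended before peaks were called. By fold the 4 were weak in CM, at percentiles from 0.359 (FAM83G, replicate 1) to 11.9 (HRH1, replicate 2). Without replicate 1 of hESC or replicate 2 of CM limma called no promoter by width (1495 and 1441 at an unadjusted p under 0.05), without replicate 1 of CM 372, and without any other library 7 to 31.

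Gene lists were then compared by role, beginning with genes needed in all cells. Of 81 cytosolic ribosomal protein genes 79 had an always open promoter, as did 76 of 78 genes of the mitochondrial ribosome, 46 of 48 of the proteasome, 20 of 20 aminoacyl-tRNA synthetases, 28 of 28 Mediator subunits, 12 of 13 RNA polymerase II subunits, 38 of 38 nuclear genes of respiratory complex I and 38 of 38 cell cycle genes, against 70.5% of all protein-coding genes. The median promoter of the aminoacyl-tRNA synthetases stood at percentile 85.3, that of complex I at 79.5, of Mediator at 78.2, of the proteasome at 77.5 and of the mitochondrial and cytosolic ribosome at 75.4 and 70.5, where the median of all always open promoters was 57.9. Cell cycle genes stood at 65.8, and RNA polymerase II, at 55.7, did not follow.

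By fold, 8 of 82 promoters of cytosolic ribosomal proteins became stronger in CM, where 3.72% of all regions did, and none became weaker (limma; 2 at an unadjusted p under 0.05). RPSA, a protein of the small subunit, stood at 55.6 and 49.1 for hESC, 67.6 and 58.4 for MES, 86.8 and 77.9 for CP, and 88.1 and 90.99 for CM and gained 37.2 ± 7.31 points (adjusted p = 0.01902). RPL18, whose promoter is shared with SPHK2, stood at 21.6 and 17.2 for hESC, 22.9 and 17.9 for MES, 43.2 and 36.7 for CP, and 60.9 and 72.8 for CM. By pileup RPSA differed by 1.94 points and was not called (adjusted p = 0.776), and 2 of the 82 were higher and 1 lower. Without replicate 2 of CM 1 of the 82 was stronger by fold, and without either hESC library none was (limma; 13 and 17 at an unadjusted p under 0.05). In the other 7 lists of this kind 5 promoters in all were stronger, among them NDUFB10 of complex I at 16.9 and 14.8 for hESC, 19.2 and 22.8 for MES, 34.9 and 28.6 for CP, and 51.7 and 66.3 for CM, and MRPS22 was weaker. By pileup 5 of the 81 promoters of mitochondrial ribosomal proteins and 4 of the 51 of the proteasome were higher, where 6.64% of all regions were, and in each of the other 5 lists 0 or 1 were higher and 0 to 2 lower. Without each library in turn these 2 counts were 0 to 8 and 1 to 4. None of the 20 promoters of the synthetases and of the 31 of Mediator was called by limma on the fold scale, with 3 of each list at an unadjusted p under 0.05.

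Replication-dependent histone genes, which are transcribed in S phase, had an always open promoter in 52 of 69 cases and no peak in 11. Their 43 promoters stood at a median percentile of 27.8 by fold and 60.2 by pileup, both below the 57.9 and 71.0 of all always open promoters. The list medians by library were 23.1 and 26.4 for hESC, 20.3 and 16.8 for MES, 28.7 and 20.3 for CP, and 47.5 and 51.4 for CM. By fold 4 of the 43 became stronger, H2BC6, H3C6, H2BC10 and H3C10, where 3.72% of all regions did, and 0 or 1 did without replicate 2 of CM or either hESC library. By pileup 15 were higher, where 6.64% of all regions were, and none lower, also at an unadjusted p under 0.05 (limma). H3C6 stood at 23.1 and 13.2 for hESC, 8.13 and 8.84 for MES, 13.6 and 3.75 for CP, and 52.3 and 59 for CM and gained 37.5 ± 6.71 points by fold (adjusted p = 0.0141). By pileup H4C3 stood at 45.7 and 30.6 for hESC, 66.6 and 62.1 for MES, 72.2 and 65.5 for CP, and 75.7 and 77.3 for CM, a gain of 38.4 ± 6.92 points (adjusted p = 0.00542). The count by pileup was 0 without replicate 2 of CM (11 at an unadjusted p under 0.05 by limma), 1 without replicate 2 of hESC, 3 without replicate 1 of CM and 10 to 20 without each of the others. Histone genes occur in many similar copies, and whether reads were lost or shared between their promoters was not tested.

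Immediate early genes, which respond to signals within minutes, were always open in 23 of 23 cases. Their 28 promoters stood at a median percentile of 18.8 by fold and 84.1 by pileup, with a local background of 5.79 times the lowest. Heat shock proteins, with 17 of 17 genes, stood at 71.4 by fold and 94.9 by pileup, and of their 20 promoters only HSPH1 was called, higher by pileup. KLF2, a factor of blood vessels, stood at 7.33 and 8.69 for hESC, 10.04 and 9.65 for MES, 8.99 and 28.3 for CP, and 42.8 and 47.6 for CM and gained 37.2 ± 6.92 points (adjusted p = 0.0163). It was also higher by pileup, at 24.02 and 29.4 for hESC, 27.8 and 23.8 for MES, 38.5 and 48.05 for CP, and 76.4 and 72.6 for CM. The other call by fold was 1 promoter of NR4A1, which was not called by pileup (adjusted p = 0.0877). By pileup the other promoter of NR4A1, not called by fold, was higher, as were JUNB and ZFP36, and FOSL1 was lower. The 2 calls of 28 by fold stand beside 3.72% of all regions, and the 4 higher and 1 lower by pileup beside 6.64% and 6.93%. Without replicate 2 of CM or either hESC library none was called by fold (limma; 4 to 6 at an unadjusted p under 0.05) and 2 were higher by pileup.

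Developmental genes were open throughout less uniformly and lay low by fold. Of 27 cardiac transcription factors 20 had an always open promoter, and so did 17 of 26 pluripotency factors, 17 of 24 primitive streak and mesoderm factors, 12 of 20 neural factors, 8 of 15 endoderm factors, 6 of 18 endothelial and blood genes, 11 of 17 fibroblast and smooth muscle genes and 7 of 39 HOX genes. Median percentiles by fold were 24.4, 28.4, 12.1, 12.4, 17.6, 20.7, 14.6 and 10.8 in this order. By pileup the cardiac, pluripotency and neural lists stood at 63.7, 63.0 and 47.5.

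Cardiac transcription factors had the largest share of promoters called stronger among the lists with 5 or more. Of their 24 promoters 8 became stronger in CM, among them those of MEF2D, HAND1, NKX2-5, TBX20, TBX3, MEIS2 and GATA6, where 3.72% of all regions did, and none became weaker, also at an unadjusted p under 0.05 (limma). The list medians were 13.4 and 18.1 for hESC, 17.2 and 15.3 for MES, 21.1 and 18.7 for CP, and 38.8 and 43.5 for CM. TBX3, a T-box factor of the conduction system, stood at 16.2 and 16.8 for hESC, 13.8 and 9.81 for MES, 20.7 and 25.8 for CP, and 51.7 and 66.2 for CM and gained 42.5 ± 7.67 points (adjusted p = 0.0145). TBX20, a T-box factor of the myocardium, stood at 10.6 and 4.94 for hESC, 14.4 and 7.32 for MES, 21.1 and 17.9 for CP, and 38.4 and 42.7 for CM and gained 32.8 ± 5.58 points (adjusted p = 0.0117). In both, the CM libraries were above all others.

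By pileup 8 of the 24 were higher, where 6.64% of all regions were, and 1 was lower, but these were only in part the promoters called by fold. Of those named above, HAND1, TBX3, MEIS2 and GATA6 were higher on both scales. MEF2D, which differed by 0.738 points, NKX2-5 and TBX20 were not called by pileup (limma adjusted p = 0.933, 0.0579 and 0.0516). GATA6, a zinc finger factor of mesoderm and endoderm, stood by pileup at 39.1 and 48.4 for hESC, 81.5 and 91.6 for MES, 85.2 and 87.2 for CP, and 93.4 and 87.3 for CM, a gain of 46.6 ± 5.01 points (adjusted p = 0.000857). Most of the increase had come by MES. HAND1, a factor of the left ventricle, stood by pileup at 70.05 and 63.2 for hESC, 62.8 and 71.1 for MES, 80.3 and 88.5 for CP, and 88.2 and 87.3 for CM. MYOCD, the myocardin coactivator, was called by pileup only, at 55.9 and 55 for hESC, 45.3 and 40.9 for MES, 64.1 and 78.9 for CP, and 88.2 and 82.97 for CM (adjusted p = 0.01303). By fold 2 were stronger without replicate 2 of CM and none without either hESC library (limma; 9 and 11 at an unadjusted p under 0.05), and by pileup 3 to 11 were higher without each library in turn.

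Sarcomere and calcium handling genes were open throughout in 21 of 49 cases. A further 24 had a promoter peak that did not meet the rule, and CASQ2, MYH7, MYL2 and TCAP had none. By fold 1 of the 24 promoters became stronger, a share near the 3.72% of all regions. It was that of TRDN, the gene of triadin, which anchors calcium release channels. It stood at 9.53 and 21.1 for hESC, 24.2 and 46.6 for MES, 30.9 and 51.95 for CP, and 76.4 and 59.9 for CM and gained 52.9 ± 12.4 points (adjusted p = 0.0329). By pileup TRDN, ACTC1, CKM and JPH2 were higher and SLC8A1 lower, where 6.64% and 6.93% of all regions were. ACTC1, cardiac alpha-actin, stood by pileup at 18.02 and 19 for hESC, 16.3 and 26.2 for MES, 56.7 and 48.9 for CP, and 86.7 and 77.3 for CM, a gain of 63.5 ± 7.94 points (adjusted p = 0.00127), and JPH2, junctophilin 2, at 8.93 and 6.25 for hESC, 11.6 and 11.1 for MES, 43.6 and 38.2 for CP, and 57.7 and 63.7 for CM. Both passed most of that gain between MES and CM, and 3 to 5 of the list were higher by pileup without each library in turn. By fold ACTC1 differed by 7.44 points and was not called.

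The calls among pluripotency factors differed between the 2 scales. POU5F1, NANOG and DPPA4 were not among the always open promoters. By fold 2 of the 20 promoters became stronger, SOX2 among them, and none weaker (limma; 3 at an unadjusted p under 0.05), where 3.72% and 5.03% of all regions did. By pileup 7 promoters were lower in CM, those of CDH1, ESRP1, ZFP42, PRDM14, OTX2 and 2 of EPCAM, and 1 was higher, where 6.93% and 6.64% of all regions were. SOX2, a core pluripotency factor, stood by fold at 12.6 and 17.5 for hESC, 18.1 and 8.19 for MES, 29.5 and 25.5 for CP, and 52.04 and 49.3 for CM and gained 35.6 ± 7.08 points (adjusted p = 0.0195), whereas by pileup it stood at 70.97 and 73.97 for hESC, 68.9 and 56.1 for MES, 65.7 and 49.8 for CP, and 56.9 and 53.6 for CM and differed by −17.2 ± 7.34 points (adjusted p = 0.146). CDH1, the epithelial cadherin, stood by pileup at 95.3 and 88.8 for hESC, 72.8 and 82.1 for MES, 67.4 and 55.6 for CP, and 33.2 and 16.6 for CM and fell by 67.2 ± 7.45 points (adjusted p = 0.000857). By fold it differed by −36.4 points (adjusted p = 0.0780). ESRP1, an epithelial splicing factor, was among the highest pileups of all in hESC and stood at 99.4 and 99.3 for hESC, 98.9 and 97.3 for MES, 88.8 and 64.8 for CP, and 54.2 and 16.6 for CM. Without each library in turn 3 to 8 promoters of the list were lower by pileup.

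Among the factors of the streak and mesoderm, EOMES, MESP1 and SNAI1 became stronger by fold and MESP2 weaker. MESP1, which acts in the first cardiac mesoderm, stood at 18.3 and 15.9 for hESC, 8.06 and 4.07 for MES, 26.99 and 34.9 for CP, and 50.3 and 64.7 for CM and gained 40.4 ± 7.85 points (adjusted p = 0.0186). Its values by fold were lowest in MES, whereas by pileup it stood at 68.9 and 66.1 for MES, above the 59.2 and 59.6 for hESC. MESP2, its neighbor, stood at 65.3 and 51.9 for hESC, 28.4 and 19.2 for MES, 33.1 and 16.7 for CP, and 21.8 and 17.1 for CM and fell by 39.1 ± 9.34 points (adjusted p = 0.03503). By pileup TBXT (brachyury), CER1 and NODAL were lower in CM and LEF1, SNAI2 and MESP1 higher, while EOMES, SNAI1 and MESP2 were not called. EOMES and MESP2 were highest by pileup in MES, at 89.8 and 85.65 and at 55.9 and 60.4. In hESC they stood at 62.3 and 69.2 and at 39.1 and 33.95. Of the 19 promoters 3 were stronger and 1 weaker by fold, where 3.72% and 5.03% of all regions were, and 3 were higher and 3 lower by pileup (6.64% and 6.93%). Without hESC replicate 1 none was called on either scale (limma; 5 by fold and 7 by pileup at an unadjusted p under 0.05), and without CM replicate 2 none was higher and 1 lower by pileup. TBXT stood by pileup at 74.4 and 59.6 for hESC, 76.9 and 80.1 for MES, 46.1 and 29.3 for CP, and 17.3 and 19.4 for CM, and fell by 48.6 ± 8.45 points (adjusted p = 0.00453).

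Of 13 promoters of neural factors none was called by fold (limma; 5 at an unadjusted p under 0.05), while by pileup 6 were lower in CM and none higher, where 6.93% of all regions were lower. NEUROD1, whose promoter is shared with CERKL, stood by pileup at 80.3 and 81.02 for hESC, 58.5 and 73.99 for MES, 37.2 and 12.6 for CP, and 11.4 and 24.98 for CM and fell by 62.5 ± 9.78 points (adjusted p = 0.00278). PAX7, TFAP2A, LHX2 and OLIG2 were among the others, and TFAP2A has a second promoter, strong by fold, that stood at 81.01 and 73.2 for hESC, 84.96 and 72.97 for MES, 90.6 and 75.8 for CP, and 95.2 and 97.4 for CM. Without each library in turn 2 to 7 were lower. HOX genes were mostly not open throughout, and of their 7 promoters HOXA13 became stronger, at 8.46 and 7.19 for hESC, 11.8 and 3.72 for MES, 36.8 and 33.6 for CP, and 47.02 and 52.04 for CM by fold (adjusted p = 0.00945). By pileup HOXA13 was higher and HOXD1 lower. Of all regions 3.72% became stronger by fold, and 6.64% were higher and 6.93% lower by pileup.

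Of the markers of other lineages, PROX1 among the endoderm factors, RUNX1 among endothelial and blood genes and CNN1 among fibroblast and smooth muscle genes became stronger, 1 promoter in each list of 11, 7 and 13, where 3.72% of all regions did. Without hESC replicate 1 none of the 3 lists had a call by fold (limma; 2 to 3 promoters of each at an unadjusted p under 0.05). The median difference between CM and hESC was 10.1 points in the endothelial and blood list, 2.03 in the endoderm and 1.34 in the fibroblast list, against 6.46 points over all always open promoters. RUNX1 stood at 20.7 and 21.3 for hESC, 17.5 and 14 for MES, 39.8 and 44.8 for CP, and 57.2 and 62.97 for CM (adjusted p = 0.0257) and was also higher by pileup (adjusted p = 0.0169), whereas PROX1 was not called by pileup (adjusted p = 0.173). By pileup CNN1, COL1A1 and VIM were higher too and TCF21 and THY1 lower, where 6.64% and 6.93% of all regions were. VIM, the gene of the mesenchymal filament vimentin, stood by pileup at 56.98 and 53.2 for hESC, 78.9 and 59.5 for MES, 71.4 and 84.7 for CP, and 86.7 and 89.8 for CM. Whether cells other than cardiomyocytes contribute to these values was not tested.

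Large gene families differed widely in the share of members that were open throughout. Olfactory receptors had an always open promoter in 3 of 390 cases and no promoter peak in 327, and keratins in 3 of 55. Zinc finger genes of chromosome 19, repressors of transposable elements that lie in clusters, had one in 225 of 246 (91.5%), against 70.5% of all protein-coding genes. Their 246 promoters stood at a median percentile of 82.8. By fold 8 of them became stronger and 1 weaker, no larger a share than over all regions (3.72% and 5.03%). By pileup 29 were higher and 2 lower, where 6.64% and 6.93% of all regions were. ZNF865, low for this list, stood at 10.2 and 11.8 for hESC, 18.4 and 15.2 for MES, 37.1 and 13.2 for CP, and 47.8 and 54.7 for CM by fold (adjusted p = 0.02503). It was not called by pileup (limma adjusted p = 0.131). The count by pileup was 2 without replicate 2 of CM and 46 without replicate 1 of CP.

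Promoters shared by a divergent gene pair numbered 1319 (9.55%). Their median percentile was 70.1 against 56.6 for the others. Of these, 7 differed between stages (0.531%), 23 became stronger in CM (1.74%) and none weaker (25 at an unadjusted p under 0.05), where 2.07%, 4.04% and 1.08% of the other promoters were called by the same limma tests. Promoters with their midpoint within 250 bp of a TSS stood at a median of 63.0 and those farther away at 36.0.

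Strength and change also varied with CpG content. The 3452 promoters of lowest CpG ratio (median 0.593) had a median percentile of 48.8 and a median width of 790 bp, and 84 of them became weaker in CM and 125 stronger. The 3452 of highest ratio (1.02) had 59.0 and 1014 bp, with 9 weaker and 143 stronger. Over all regions tested 3.72% became stronger and 5.03% weaker. In both classes the share that became stronger was near that level, and the share that became weaker below it. The promoters that became weaker in CM had a median CpG ratio of 0.633, against 0.845 in those that became stronger, and a GC box in 51.1% (95% Wilson interval 42.8 to 59.4) against 73.4% (69.5 to 77.0). A TATA box occurred in 6.67% (3.55 to 12.2) of those that became weaker and in 2.28% of all always open promoters.

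Promoters with an ETS, NRF1, YY1 or TCTCGCGA sequence were the stronger ones. Their median percentiles were 74.1, 70.5, 74.6 and 76.5, against 55.6, 56.4, 57.4 and 57.6 without the respective sequence. Those with a TATA box, an AP-1 or an OCT sequence stood at 44.8, 51.2 and 39.6, against 58.2, 58.0 and 58.0 without it. A GC box made little difference (57.5 with and 59.4 without), though promoters that held one were wider (973 against 848 bp). ETS sequences were less frequent in the promoters that became stronger in CM, with 8.35% (6.28 to 11.02) against 13.3% of all. These values describe promoters and were not tested.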

How the data were processed

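ATAC-seq peaks of 8 libraries were used (4 stages, 2 each). The authors mapped reads to hg38 with BWA-MEM 0.7.13, filtered them at a mapping quality of 30, dropped duplicates by Picard and ran MACS2 2.1.0 on every library separately (q 0.01, no model, cuts shifted by 100 bp and extended to 200 bp). The deposited lists give, per peak, the fold over local background, which is a ratio. They also give the deposited −log10 p and −log10 q values. They hold no read counts, so depth is known only through the recovered background. The authors' other steps used bedtools 2.26.0.

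Here peaks were merged with bedtools 2.31.1, and TSSs and the hg38 sequence came from GENCODE 44. Solving fold and −log10 p together gave every peak's pileup and local background, to within 0.001 for 100% of peaks. Strength was the percentile of the highest fold per region, and width log2 of the covered bases, centered per library. Both were fitted with limma 3.58.1 (R 4.3.3, trend, all 8 libraries, no block), with Benjamini-Hochberg adjustment over 28115 regions and a threshold of 0.05. Summaries per library were tested by exact permutation. The procedure was tested on simulated data. The 95% intervals of shares (Wilson) reflect counting error alone. Repeats were sought as exact 50-base matches. Replicate numbers did not pair the libraries (correlations of deviations −0.184 to 0.179).

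Named promoters were the 5 strongest, the 10 largest gains and losses from hESC to CM among called promoters whose libraries did not overlap, 5 higher and 5 lower at MES and CP, the 5 steadiest, the 5 widest, 4 gains and 4 losses of width, up to 4 per gene list with the largest difference, and those next to the thresholds. Genes named for their pileup are those called on that scale. A few list members are counted but not reported by name here. The members, the 23 gene lists and the 15 consensus sequences were chosen with earlier results of these data known. Alternatives were other scales, ranks, thresholds, TSS sets and merged regions, and each library left out. Ranking promoters alone, and leaving out libraries on the pileup scale, were added after seeing the data. Scripts ran in Python 3.11.15 with pandas 2.3.3, numpy 2.4.6, pysam 0.24.0, scipy 1.17.1 and matplotlib 3.10.9.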

Additional observations from a re-analysis of the deposited data

How the results depend on the processing

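The number of always open promoters stayed within 1.5 times of 13806 under all alternatives (10523 to 14770). Of the 527, 135 and 265 promoters that were stronger, weaker or different over the stages, log2 fold gave 959, 144 and 561, −log10 q 586, 373 and 564, pileup 807, 610 and 922, ranks among all regions of a list 36, 67 and 10, ranks among promoters alone 135, 197 and 68, and peaks that cover at least 50% of the merged region 152, 54 and 55. Leaving out 1 library gave 5 to 607, 4 to 175 and 10 to 348, and on the pileup scale 169 to 1210, 126 to 916 and 263 to 2430. For the 65 promoters called by width, peaks that cover 50% left 0 by limma (1155 at an unadjusted p under 0.05, against 1950 as reported), and leaving out 1 library left 0 to 372. With the replicate block the counts were 441, 133 and 189 for strength and 38 for width, with 420 of the 527 and 117 of the 135 still called. The median fold per library had an exact permutation p of 0.0286 without replicate 1 of CP (0.0286 to 0.743 over the libraries left out), and the other library summaries passed the threshold under none of the alternatives run. Normal scores, a stricter q, 500 bp, canonical TSSs and regions up to 2 kb moved no count by over 1.5 times. The cause of these differences was not tested. With 2 libraries per stage, small differences were not detectable.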

Other observations

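Some always open promoters were named after their values were seen. RBM20, a muscle splicing factor, stood at percentiles 9.17 and 15.1 for hESC, 13.1 and 10.2 for MES, 46.97 and 40.4 for CP, and 59.8 and 63.9 for CM by fold, a gain of 49.8 points from hESC to CM (limma adjusted p = 0.0101). RBM24, another splicing factor of muscle, stood at 33.1 and 21.3 for hESC, 41.6 and 36.6 for MES, 74.1 and 68.1 for CP, and 80.5 and 79.5 for CM and gained 52.8 points (adjusted p = 0.0170). Both were higher in all CP and CM libraries than in all hESC libraries. ANK2, which encodes ankyrin-B, has 2 always open promoters, and only the downstream one changed. The upstream promoter (chr4:112817900-112818724) stood at 82.5 and 86.4 for hESC, 84.98 and 65.7 for MES, 71.5 and 92.6 for CP, and 84.7 and 80.9 for CM, a difference of −1.61 points (adjusted p = 0.916), and the other (chr4:113145441-113146202) at 13.6 and 38.6 for hESC, 11.4 and 19.7 for MES, 35.8 and 59.9 for CP, and 73.4 and 82.7 for CM, a gain of 52.0 points (adjusted p = 0.0363). The difference between the 2 promoters was not tested.

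Also chosen after their values were seen are 3 promoters of genes of meiosis and the germ line. SPO11, which makes the breaks of meiotic recombination, stood at 75.98 and 67.8 for hESC, 17.6 and 14.5 for MES, 35.4 and 20.9 for CP, and 19.7 and 9.19 for CM and fell by 57.4 points (adjusted p = 0.00919), mostly between hESC and MES. HORMAD2, a protein of meiotic chromosome axes, stood at 81.4 and 86.5 for hESC, 82.9 and 83.96 for MES, 78.7 and 94.7 for CP, and 46.7 and 39.8 for CM and fell by 40.7 points (adjusted p = 0.0140). SOX30, a factor of spermatid development, stood at 79.5 and 86.6 for hESC, 88.5 and 83.3 for MES, 81.3 and 68.98 for CP, and 49.1 and 35.2 for CM and fell by 40.9 points (adjusted p = 0.0194). A second promoter of SOX30, shared with C5orf52, stood at 35.03 and 19.1 for hESC, 30.98 and 17.7 for MES, 6.69 and 25.9 for CP, and 18.4 and 20.7 for CM and was not called (difference −7.51 points, adjusted p = 0.590).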
